A study of Mus musculus with 9 samples.

Results

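Imprinted genes are transcribed mainly from the copy inherited from 1 parent. A list of 41 imprinted genes of the mouse was looked up by gene symbol in a table of 29069 genes, and 40 of them had a row. *Kcnq1ot1* was matched to no row by symbol or identifier and was not analysed here as a gene. Of the 40 genes, 39 had a mean above 5 normalised counts over all samples and entered the tests, in fits over 18156 genes. The untested gene was *Dcn*, the proteoglycan decorin, at 1 to 6 normalised counts in the 9 samples.

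The samples were 9 total RNA-Seq libraries of mES-D3, a mouse embryonic stem cell (mESC) line grown without feeder cells, with 3 replicates in each of 3 media held for 24 h. Ground state medium (GS) was serum-free N2B27 with 1 µM of the MEK inhibitor PD0325901, 3 µM of the GSK-3 inhibitor CHIR99021 and 20 ng/mL LIF. Differentiation medium (DM) was DMEM with 10% FBS and neither inhibitor nor LIF, so DM vs. GS differ in serum, base medium, inhibitors and LIF together. The NO medium was DM with 250 µM of the nitric oxide donor DETA/NO, so only NO vs. DM isolates the donor. All libraries came from 1 cell line, and the sources used here do not say whether replicates were separate cultures. The p-values thus measure the spread between these samples, pooled over the 3 media. The libraries hold no information on the parental copy a read came from.

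At an imprinted cluster, a control region that carries DNA methylation on 1 parental copy sets which genes are read from which parent, often through a long noncoding RNA or the insulator protein CTCF. In ES cells and early embryos, ZFP57 recognises the methylated hexamer TGCCGC at such regions and recruits TRIM28, which keeps the mark in place. Imprinted genes as a group are known for roles in growth and in the placenta, and their clusters mix genes of paternal and maternal expression.

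Levels spanned a wide range in GS. Scaled per kilobase of annotated exon, *Peg10*, a retrotransposon-derived gene needed by the placenta, stood highest at 1030 normalised counts per kb, ahead of *Impact*, a translational regulator, at 902 and *Igf2r*, the receptor that clears IGF2, at 427. *Copg2* (354 per kb), *Tssc4* (288), *Mest* (267) and *Rian* (255) followed. At the other end, *Dlk1* stood at 0.884 normalised counts per kb, *Airn* at 0.649 and *Dcn* at 0.628.

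Of 39 imprinted genes, 12 rose at least 2-fold in NO vs. GS and 0 fell, where a gene was called at a Benjamini-Hochberg adjusted p from limma under 0.05 and a fold change of at least 2. The 12 were *H19*, *Igf2*, *Dlk1*, *Peg3*, *Zim1*, *Peg10*, *Sgce*, *Mest*, *Magel2*, *Cdkn1c*, *Slc22a18* and *Osbpl5*. They made up 30.8% of the imprinted genes, while 10.1% of all genes tested were called higher and 1.64% lower in this comparison. In NO vs. DM 4 imprinted genes rose (*H19*, *Igf2*, *Osbpl5* and *Plagl1*, 10.3%) and 0 fell, against 6.78% and 1.77% of all genes. In DM vs. GS *Snrpn* and *Magel2* rose and *Plagl1* fell, against 2.94% and 1.27% of all genes. With no minimum fold change, 8 imprinted genes passed for DM vs. GS, 7 higher and 1 lower, against 6.69% of all genes, 4.37% higher and 2.32% lower. For NO vs. GS 14 passed, 13 higher and 1 lower (20.0% of all genes, 13.4% higher and 6.64% lower). For NO vs. DM 7 passed, 5 higher and 2 lower (14.2% of all genes, 9.01% higher and 5.24% lower). The comparisons share libraries, so their counts are not independent of each other.

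On the log2(value + 1) scale the 39 genes had a median fold change of 0.20 when DM was set against GS, of 0.40 when NO was set against GS and of 0.22 when NO was set against DM. All genes tested had medians of 0.00, -0.02 and 0.00. In NO vs. GS the 3 values of 1 medium lay above the 3 of the other for 16 imprinted genes with NO higher and for 2 with NO lower, against 20.9% and 18.3% of all genes. The same counts were 14 and 3 in DM vs. GS (16.2% and 13.5% of all genes) and 13 and 3 in NO vs. DM (18.1% and 15.3%). In total, 16 imprinted genes passed the adjusted p threshold in at least 1 comparison, *Snrpn* and *Plagl1* passed in all 3, and 23 passed in none.

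**Figure D1:**
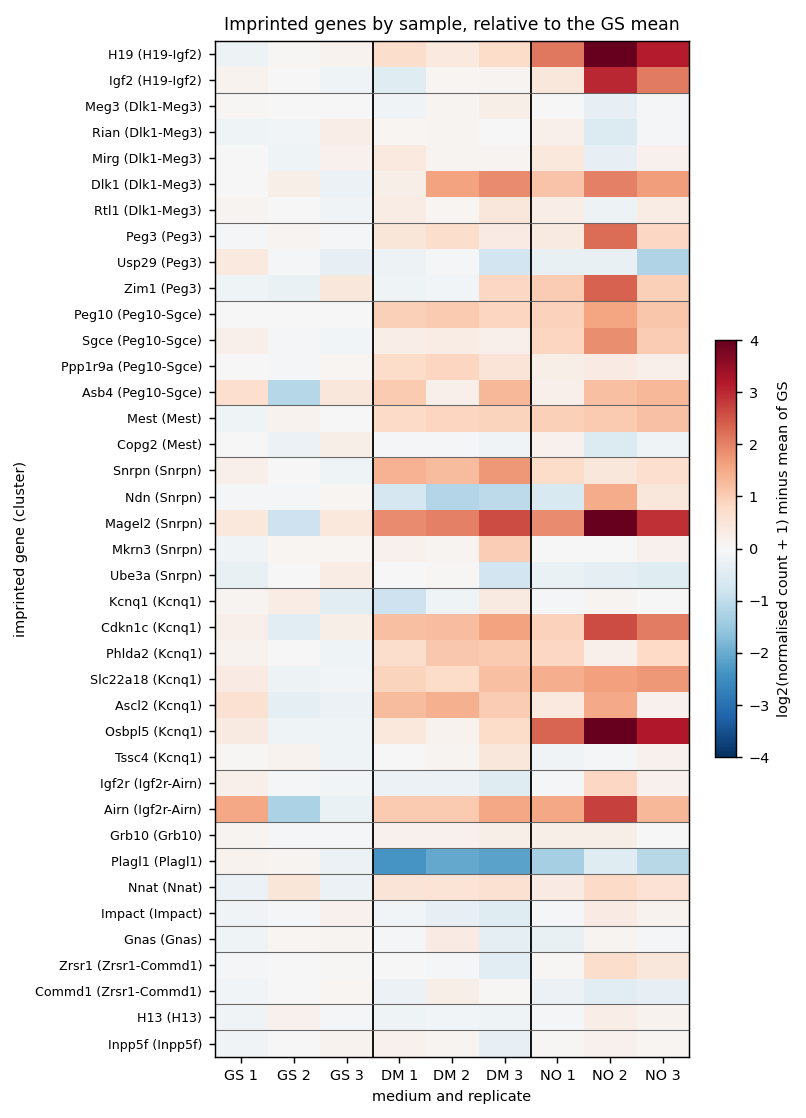
Values of the 39 tested imprinted genes (rows, with their cluster) in the 9 samples (columns) as log2(normalised count + 1) minus the mean of the 3 GS samples, with the colour clipped at 4 units either way. *H19*, *Igf2*, *Magel2* and *Osbpl5* were darkest red in NO replicate 2, *Plagl1* was blue in all DM samples, and the *Meg3*, *Rian* and *Mirg* rows stayed pale.

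The NO replicates spread more than those of the other media. In limma each gene had 1 spread pooled over the 3 media, so p-values can be too small for NO comparisons and too large for DM vs. GS. Of the 12 imprinted genes called higher in NO vs. GS, NO replicate 2 held the highest NO value in 10 and NO replicate 1 the lowest in 11, as it did for 89.2% and 85.7% of the 1830 genes called higher over the whole table. NO replicate 2 also had the lowest summed level of 10 mESC markers (58351 normalised counts, against 90541 to 115815 in the other 8 libraries) and the highest of 10 primitive endoderm markers (6522, against 1324 to 3811). Of the mESC markers, *Esrrb* was lowest there (9905), but *Nanog* (7678, against 7596 in DM replicate 3) and *Sox2* (3122) were not. *Col4a1* (3112) and *Lamb1* (2698) made up most of the primitive endoderm sum, with *Gata4* at 179 and *Gata6* at 234. In NO replicate 2 the sum of 9 trophoblast markers was 2810, where the other libraries held 967 to 1799. Most of it came from *Krt8* (962), *Krt18* (604) and *Krt7* (484). In that library the trophoblast factors *Cdx2* (14) and *Eomes* (91) lay below their GS values of 46 to 75 and 229 to 308. No marker on these lists was at 0 in all 9 libraries. Of 7 tested primitive endoderm markers 3 were called higher in NO vs. GS, and of 10 mESC markers 1 was called lower. Among 9 trophoblast markers 3 were called higher (*Hand1*, *Krt7* and *Krt18*) and 2 lower (*Cdx2* and *Eomes*). The calls were 2 higher of 6 tested fibroblast markers, 1 higher and 2 lower of 8 mesoderm markers and 1 higher of 8 neuroectoderm markers. Over all genes, 10.1% were called higher and 1.64% lower. Sums of 10 fibroblast markers (977 in NO replicate 2, 653 to 1105 in the others) and of 10 neuroectoderm markers (1682, against 1271 to 1933) placed that library within the range of the rest, and 10 mesoderm markers summed to 374 to 435 in NO and 494 to 871 in the other media. The part of other cell types in the imprinted gene values was not tested, and in bulk RNA more cells of a type cannot be told apart from more RNA per cell. Without NO replicate 2, 7 imprinted genes were called higher in NO vs. GS (17.9%, against 6.75% of all genes) and 1 lower (against 229 of all 18156 genes). In NO vs. DM without that library 2 were called higher (5.13%, against 3.46% of all genes).

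*Mest*, *Plagl1* and *Snrpn*, whose promoters lie in imprinted control regions, changed in different directions. *Mest*, a paternally expressed hydrolase-like protein of mesoderm, was measured at 939, 1151 and 1068 normalised counts for GS, 1770, 1890 and 1946 for DM and 2034, 2183 and 2341 for NO. The 3 media were fully separated, with NO above DM and DM above GS. DM vs. GS gave a log2 fold change of 0.83 ± 0.13 (SE, adjusted p = 0.00234) and NO vs. GS of 1.06 ± 0.13 (adjusted p = 0.000642), and NO vs. DM did not pass (0.22 ± 0.13, adjusted p = 0.25). Without GS replicate 1 the NO vs. GS value was 0.98, just under 2-fold.

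*Plagl1*, a paternally expressed zinc finger factor that arrests the cell cycle, was the imprinted gene with the clearest fall. It stood at 1523, 1483 and 1175 normalised counts for GS, 270, 332 and 314 for DM and 548, 997 and 645 for NO, with no overlap between media and NO between the other 2. DM vs. GS gave a log2 fold change of -2.18 ± 0.21 (adjusted p = 0.000193), NO vs. GS of -0.97 ± 0.21 (adjusted p = 0.00849) and NO vs. DM of 1.21 ± 0.21 (adjusted p = 0.00581). Without NO replicate 2 the NO vs. GS value was -1.22, past 2-fold, and the NO vs. DM value 0.96, short of it.

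*Snrpn*, which encodes the splicing protein SmN and is paternally expressed, was highest in DM. Values were 1112, 944 and 848 normalised counts for GS, 2521, 2302 and 3230 for DM and 1602, 1323 and 1534 for NO, again with no overlap. The rise in DM vs. GS was 1.46 ± 0.16 on the log2 scale (adjusted p = 0.000336), and NO lay 0.62 ± 0.16 above GS (adjusted p = 0.0196) and at -0.84 ± 0.16 relative to DM (adjusted p = 0.00855). For *Snrpn* the NO vs. GS difference no longer passed the adjusted p threshold without GS replicate 2, GS replicate 3 or NO replicate 3 (adjusted p = 0.0665 to 0.0837) and with no trend in the moderation (adjusted p = 0.0529). In GENCODE M21, 14.4% of the exon bases of *Snrpn* were shared with other genes, among them *Snurf* and the small nucleolar RNAs *Snord64* and *Snord107*.

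The RefSeq promoter windows of these 3 genes, 250 bases before to 50 after the start, are printed where they held a ZFP57 hexamer (GRCm38.p6, 5′ to 3′ on the gene's own strand, capitals marking the hexamer TGCCGC or its reverse complement GCGGCA). *Mest* (chr6:30737800-30738099, plus strand) held 2 hexamers and 17 CpG, *Plagl1* (chr10:13090582-13090881, plus strand) 1 hexamer and 26 CpG, and *Snrpn* (chr7:60005150-60005449, minus strand) 1 hexamer and 7 CpG. Of the other windows in RefSeq, 1 of *Mest* and 3 of *Snrpn* held no hexamer, and 1 more of *Mest*, shifted from the printed one by 3 bases, held the same 2.
Mest: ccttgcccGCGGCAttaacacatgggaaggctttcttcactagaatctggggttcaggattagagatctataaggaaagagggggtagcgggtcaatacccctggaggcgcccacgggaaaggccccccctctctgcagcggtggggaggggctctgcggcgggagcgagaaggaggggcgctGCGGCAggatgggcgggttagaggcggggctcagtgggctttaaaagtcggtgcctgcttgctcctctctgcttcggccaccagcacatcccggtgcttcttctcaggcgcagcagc
Plagl1: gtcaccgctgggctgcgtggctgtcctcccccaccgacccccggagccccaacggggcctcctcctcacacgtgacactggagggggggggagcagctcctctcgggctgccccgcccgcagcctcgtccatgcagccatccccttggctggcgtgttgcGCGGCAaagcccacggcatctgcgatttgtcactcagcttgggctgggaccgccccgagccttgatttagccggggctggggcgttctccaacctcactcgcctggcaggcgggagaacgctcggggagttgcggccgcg
Snrpn: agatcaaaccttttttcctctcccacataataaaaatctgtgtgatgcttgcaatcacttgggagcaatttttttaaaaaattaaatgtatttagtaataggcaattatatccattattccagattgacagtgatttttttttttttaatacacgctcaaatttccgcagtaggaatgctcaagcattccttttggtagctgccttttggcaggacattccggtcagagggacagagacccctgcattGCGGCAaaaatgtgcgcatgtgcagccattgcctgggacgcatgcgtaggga
A search of both strands found the hexamer in 12 of 51 promoter windows of listed genes (23.5%) and in 3813 of 32851 windows over all genes (11.6%). Counted by gene, 11 of 33 listed genes with an entry held it in at least 1 window (33.3%), against 13.1% of 27025 gene symbols. No window was matched for *Impact*, *Rtl1*, *H19*, *Dcn*, *Peg10*, *Kcnq1*, *Sgce* and *Cdkn1c*. The listed genes' windows had a median of 15 CpG, and all windows 7. The letters do not say whether the site was methylated or bound in these cells, and the genes printed here moved in both directions.

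**Figure D2:**
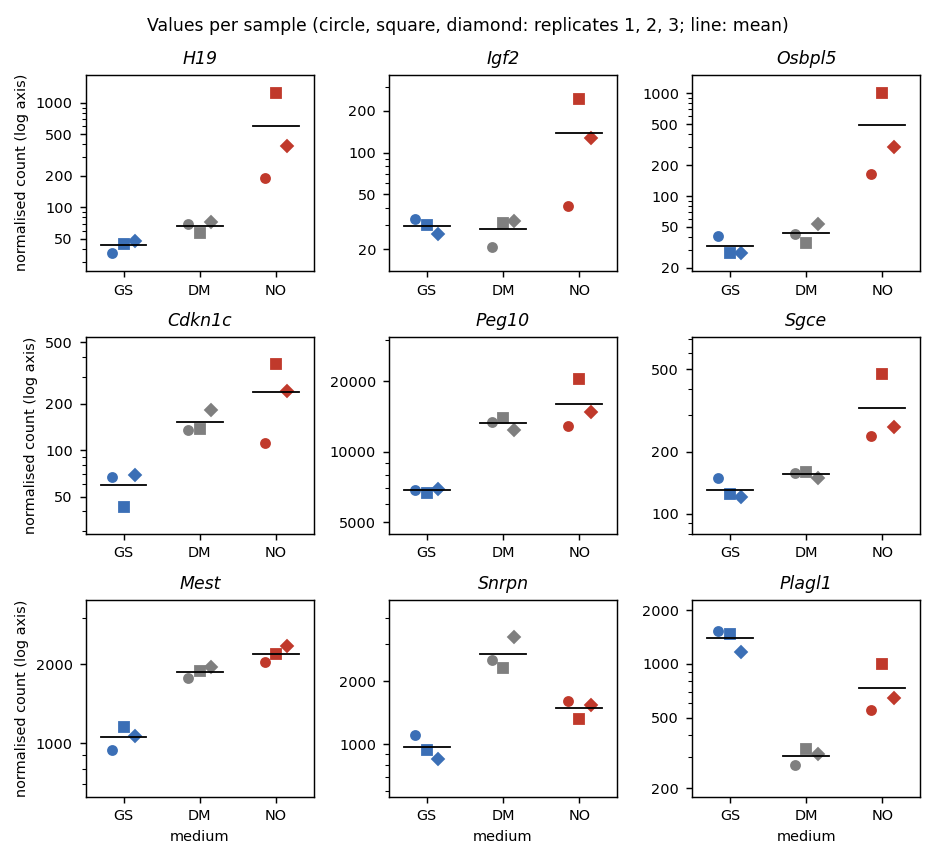
Normalised counts of 9 imprinted genes in each sample on log axes, with circles, squares and diamonds for replicates 1, 2 and 3 and a line at the mean of each medium. The squares of NO lay highest for *H19*, *Igf2*, *Osbpl5*, *Cdkn1c*, *Peg10*, *Sgce* and *Plagl1*, while *Mest* and *Snrpn* showed tight groups.

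At the H19-Igf2 cluster (chr7:142575529-142666816, GRCm38) both members rose with the NO donor, and neither passed in DM vs. GS. *H19*, the maternally expressed noncoding RNA that hosts a microRNA, was measured at 37, 45 and 48 normalised counts for GS, 70, 57 and 72 for DM and 189, 1240 and 385 for NO. Every NO value was above every DM value, and the NO values themselves differed widely (604.7 ± 559, SD, n = 3). The log2 fold change was 3.35 ± 0.50 in NO vs. GS (10.2-fold, adjusted p = 0.00142) and 2.75 ± 0.50 in NO vs. DM (6.71-fold, adjusted p = 0.00713), with 0.60 ± 0.50 in DM vs. GS (adjusted p = 0.562). The 2 NO calls held without any 1 library. Without NO replicate 2 they were 2.62 (NO vs. GS) and 2.02 (NO vs. DM), and without NO replicate 1 they were 3.97 and 3.37.

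*Igf2*, the paternally expressed fetal growth factor, gave 33, 30 and 26 normalised counts for GS, 21, 31 and 32 for DM and 41, 244 and 128 for NO. NO lay above the other media in all replicates, with replicate 1 close to them. *Igf2* rose by 1.85 ± 0.51 on the log2 scale in NO vs. GS (adjusted p = 0.0258) and by 1.95 ± 0.51 in NO vs. DM (adjusted p = 0.0281). Each of these calls was lost in 8 of 19 alternatives. Its NO vs. GS call did not hold without any 1 of the GS replicates or NO replicates 2 or 3 (adjusted p = 0.0595 to 0.0875), with no trend, with precision weights or after quantile normalisation, and it was 2.54 without NO replicate 1. Its NO vs. DM call did not hold without any 1 of the DM replicates or NO replicates 2 or 3 (adjusted p = 0.0576 to 0.0928), with no trend, with precision weights or with only the 6 samples compared, and it was 2.64 without NO replicate 1.

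The ratio of *H19* to *Igf2* normalised counts was 1.12 to 1.85 in GS, 1.84 to 3.33 in DM and 3.01 to 5.08 in NO, so the NO and GS ratios did not overlap and those of DM reached into both. *Igf2os*, transcribed from the opposite strand of *Igf2*, was at 2, 4 and 0 normalised counts for GS, 0, 4 and 5 for DM and 6, 42 and 20 for NO (NO vs. GS log2 fold change 2.91 ± 0.90, adjusted p = 0.0412), a call that was lost in 6 of 9 fits with 1 library left out: any GS replicate, NO replicate 2 or 3, or DM replicate 2 (adjusted p = 0.0519 to 0.149). Its value was 2.26 without GS replicate 3, 2.30 without NO replicate 2 and 3.61 without NO replicate 1. *Igf2os* had a mean above 5 over all samples only through its NO values, so the filter favoured a call of higher in NO. Of the exon bases of *Igf2*, 64.5% lay within another annotated gene in GENCODE M21, mostly *Gm49394* on its own strand. Whether reads were counted by strand is not given in the sources used here, which leaves the counts of *Igf2* and *Igf2os* uncertain.

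The Kcnq1 cluster (chr7:142966829-143756985) held the imprinted gene with the highest fold change in NO. *Osbpl5*, a maternally expressed member of the oxysterol-binding protein family, was measured at 41, 28 and 28 normalised counts for GS, 43, 35 and 54 for DM and 164, 1016 and 303 for NO. All NO values exceeded all others, and NO replicate 2 was again far above NO replicates 1 and 3. The log2 fold change was 3.50 ± 0.51 in NO vs. GS (11.3-fold, adjusted p = 0.00126) and 3.06 ± 0.51 in NO vs. DM (8.37-fold, adjusted p = 0.00494). Both calls held without any 1 library, at 2.77 and 2.34 without NO replicate 2, and the NO vs. DM value was 3.65 without NO replicate 1. None of its exon bases were shared with another gene.

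*Cdkn1c*, the maternally expressed CDK inhibitor p57, was at 67, 43 and 69 normalised counts for GS, 135, 138 and 182 for DM and 111, 360 and 242 for NO. All DM and NO values lay above the GS values, and DM and NO overlapped. The NO vs. GS log2 fold change was 1.85 ± 0.37 (adjusted p = 0.00576), and DM vs. GS stayed short of the threshold (1.35 ± 0.37, adjusted p = 0.0514). An opposite-strand gene, *Gm44732*, covered 30.7% of its exon bases.

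*Slc22a18*, a maternally expressed transporter of the organic cation family, rose from 70, 48 and 52 normalised counts for GS to 154, 176 and 187 in NO, with 105, 94 and 130 in DM between them. The 3 media were fully separated. The log2 fold change was 1.60 ± 0.22 in NO vs. GS (adjusted p = 0.00111) and 0.95 ± 0.22 in DM vs. GS (adjusted p = 0.027). The DM vs. GS difference of *Slc22a18*, under 2-fold, no longer passed without GS replicate 2 or 3 or any 1 DM replicate (adjusted p = 0.0527 to 0.115) and after quantile normalisation (adjusted p = 0.0647).

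*Phlda2*, a maternally expressed gene that limits placental growth, was higher in DM than GS, at 165, 151 and 130 normalised counts for GS, 242, 315 and 310 for DM and 266, 171 and 256 for NO. DM vs. GS gave 0.95 ± 0.21 (adjusted p = 0.0197), and NO vs. GS 0.61 ± 0.21 (adjusted p = 0.0611). The *Phlda2* difference, under 2-fold, no longer passed without GS replicate 2 or 3 or DM replicate 2 or 3 (adjusted p = 0.0694 to 0.0936) and after quantile normalisation (adjusted p = 0.0689). *Ascl2*, a trophoblast transcription factor, was at 57 to 114 normalised counts for GS, 152 to 201 for DM and 84 to 217 for NO, and did not pass (DM vs. GS 1.23 ± 0.36, adjusted p = 0.0652). *Kcnq1*, a potassium channel, and *Tssc4* were at 11 to 26 and 468 to 732 normalised counts, with log2 fold changes between -0.21 and 0.22.

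*Kcnq1ot1* is the paternally expressed noncoding RNA that silences this cluster in cis. The table held 4 short RNA rows annotated on the opposite strand within its span (chr7:143251367-143294155), which summed to 80, 77 and 74 normalised counts for GS, 56, 87 and 64 for DM and 61, 49 and 51 for NO. The NO sums lay below the GS sums, but none of the 3 rows that could be tested passed the adjusted p threshold. Of 15 other tested genes of the domain, *Tspan32* and *R74862* were called higher in NO vs. GS (13.3%, against 10.1% of all genes, with log2 fold changes of 1.11 and 1.00 and adjusted p = 0.00849 and 0.0212), *Cd81* passed the adjusted p alone (0.83, adjusted p = 0.0188), and *Tnfrsf26* was called higher in NO vs. DM (2.36, adjusted p = 0.035). In DM vs. GS 0 of the 15 passed in limma, and 0 had an unadjusted p under 0.05, against 19.9% of all genes. *Cd81* no longer passed in NO vs. GS without GS replicate 2 or 3 or NO replicate 2 or 3 (adjusted p = 0.0549 to 0.0797). Calls of *R74862* did not hold without any 1 GS replicate or NO replicate 2 (adjusted p = 0.053 to 0.0678), those of *Tnfrsf26* not in 7 of 9 fits with 1 library left out (all but those without GS replicate 1 and NO replicate 1, adjusted p = 0.0504 to 0.138, value 3.11 without NO replicate 1), and *Tspan32* was at 0.94 without NO replicate 2. *Tnfrsf26* averaged 8.78 normalised counts over all samples, with NO 4.02-fold above GS and 5.14-fold above DM. Its entry to the tests thus leaned on its NO values, and the filter favoured a call of higher in NO.

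**Figure D3:**
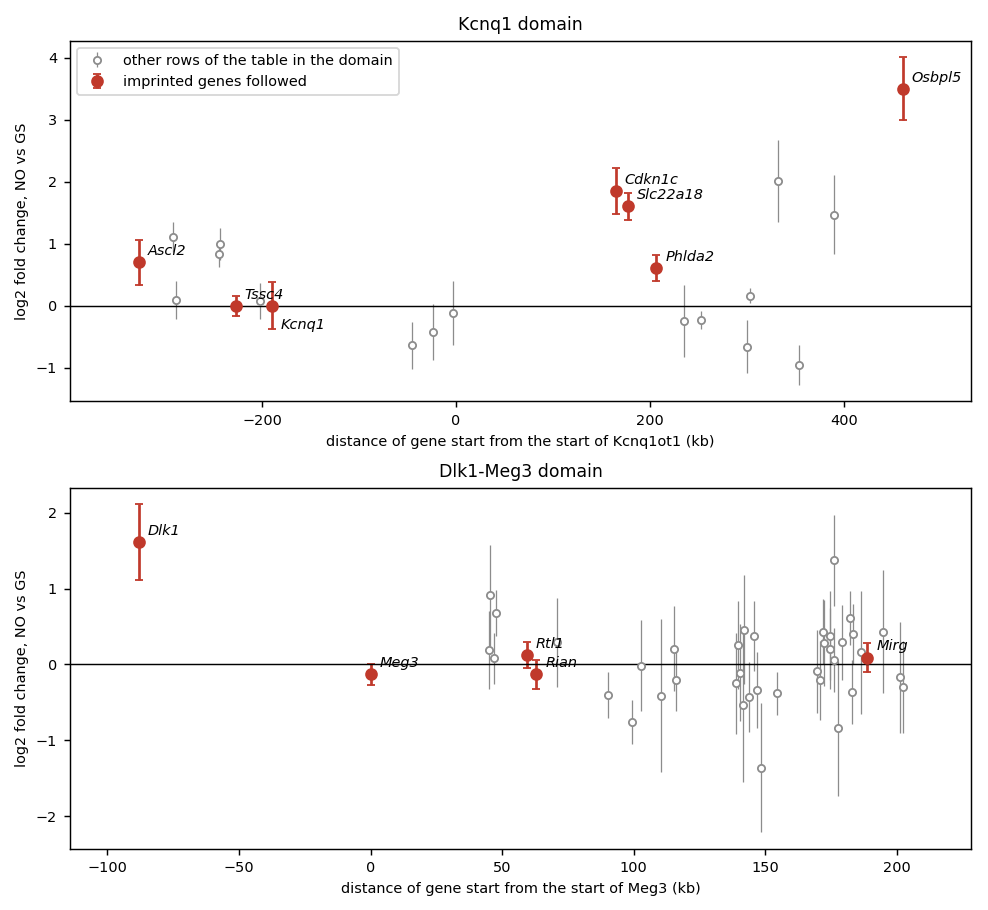
Log2 fold change in NO vs. GS (bars, SE) of the listed imprinted genes (filled) and of the other tested genes (open) against the distance of the gene start from that of *Kcnq1ot1* (upper panel) and *Meg3* (lower panel), in kb. In the Kcnq1 domain values ran from *Osbpl5* at 3.50 to below 0, and around *Meg3* the listed genes other than *Dlk1* lay close to 0.

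At the Dlk1-Meg3 cluster (chr12:109452823-109749460) the listed genes other than *Dlk1* showed little change beyond the spread between replicates. *Dio3* at the far end of the domain and *Begain* next to *Dlk1*, both from a second list, were called in some comparisons and are given below. The maternally expressed noncoding RNAs of the cluster were *Meg3* at 1365 to 2011 normalised counts over the 9 samples, *Rian*, a host of small nucleolar RNAs, at 3181 to 5537, and *Mirg*, a host of microRNAs, at 1021 to 1723. Their log2 fold changes ranged from -0.19 to 0.20 over the 3 comparisons, with adjusted p from 0.376 to 0.92. The paternally expressed *Rtl1*, a retrotransposon-derived gene of the placental vessels, was at 618 to 978 normalised counts and did not pass either (adjusted p = 0.423 to 0.66). *Dlk1*, a transmembrane protein with EGF repeats, was barely read, at 5, 6 and 4 normalised counts for GS, 6, 17 and 21 for DM and 12, 23 and 18 for NO. It was called higher in NO vs. GS (1.61 ± 0.50, adjusted p = 0.0412), and the call was lost in 9 of 18 alternatives: without any 1 GS replicate, NO replicate 2 or 3 or DM replicate 2 (adjusted p = 0.0588 to 0.122), with no minimum mean, with precision weights and after quantile normalisation.

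Within the same domain, 38 other genes could be tested, of which 22 were microRNA genes, 14 small nucleolar RNAs and 2 long noncoding RNAs. Many of the microRNA rows lay near the minimum mean, such as *Mir665* at 5.33 normalised counts, where changes are hard to call. In limma 0 of the 38 passed in each comparison, and 2, 3 and 1 had an unadjusted p under 0.05 in DM vs. GS, NO vs. GS and NO vs. DM, where 19.9%, 34.6% and 31.3% of all genes did. The 16 small nucleolar RNA rows of the domain summed to 1314, 3207 and 2714 normalised counts for GS, 2683, 4048 and 673 for DM and 1591, 4336 and 1152 for NO, with a wide spread within each medium. Over the whole table the 702 small nucleolar RNA rows ran from 416275 to 1220294 normalised counts per library, with DM replicate 3 lowest and NO replicate 2 highest in both sums. The 46 microRNA rows summed to 269 to 473 normalised counts, and reads under 30 nt were not kept, so these rows do not measure mature microRNAs.

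The Peg10-Sgce cluster (chr6:4674350-5433022) rose in its paternally expressed pair, which share a promoter region and are read in opposite directions. *Peg10* was measured at 6875, 6704 and 6970 normalised counts for GS, 13351, 14006 and 12378 for DM and 12894, 20557 and 14782 for NO. All DM and NO values were above the GS values, while DM and NO overlapped. *Peg10* rose by 0.95 ± 0.17 on the log2 scale in DM vs. GS (adjusted p = 0.00566) and by 1.20 ± 0.17 in NO vs. GS (adjusted p = 0.00111), with 0.25 ± 0.17 in NO vs. DM (adjusted p = 0.332).

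*Sgce*, epsilon-sarcoglycan, was at 149, 124 and 120 normalised counts for GS, 158, 159 and 149 for DM and 237, 477 and 262 for NO. DM lay at or above the GS values, and NO was above both in all replicates. The log2 fold change was 1.24 ± 0.25 in NO vs. GS (adjusted p = 0.00563, 0.93 without NO replicate 2), 0.99 ± 0.25 in NO vs. DM (adjusted p = 0.0234) and 0.25 ± 0.25 in DM vs. GS (adjusted p = 0.633). The NO vs. DM difference of *Sgce*, under 2-fold, no longer passed without any 1 DM replicate (adjusted p = 0.0618 to 0.0652), with only the 6 samples compared (adjusted p = 0.0628) and with no trend (adjusted p = 0.0526). The ratio of *Peg10* to *Sgce* was 46.1 to 58.1 in GS, 83.1 to 88.1 in DM and 43.1 to 56.4 in NO, with the DM ratios above all others.

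Of the maternally expressed neighbours, *Ppp1r9a*, the actin-binding protein neurabin, peaked in DM. It was at 726, 703 and 782 normalised counts for GS, 1219, 1323 and 1061 for DM and 862, 929 and 846 for NO, with no overlap between media. DM vs. GS gave 0.70 ± 0.13 (adjusted p = 0.00757) and NO vs. GS 0.25 ± 0.13 (adjusted p = 0.191). In NO vs. DM the value of -0.45 ± 0.13 passed narrowly (adjusted p = 0.0429) but not with the replicate number as a block (adjusted p = 0.0673), and it was lost in 14 of 19 alternatives, including every fit with 1 library left out except that without DM replicate 3 (adjusted p = 0.055 to 0.142). *Asb4*, a ubiquitin ligase adaptor, was near the detection limit at 1 to 10 normalised counts. Of 4 other tested genes of the cluster, 0 passed in any comparison in limma, and 1 in each comparison had an unadjusted p under 0.05. Of all genes, 19.9%, 34.6% and 31.3% had such a p in DM vs. GS, NO vs. GS and NO vs. DM.

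At the Peg3 cluster (chr7:6671269-6967219) *Peg3* and *Zim1* rose in NO vs. GS, and *Usp29* did not pass. *Peg3*, a paternally expressed zinc finger protein, was measured at 644, 707 and 638 normalised counts for GS, 922, 1068 and 833 for DM and 859, 3142 and 1177 for NO. NO replicate 2 stood far above the other NO libraries, and all DM and NO values were above GS. The NO vs. GS log2 fold change was 1.15 ± 0.36 (adjusted p = 0.0412), and 0.60 without NO replicate 2 (adjusted p = 0.0339). The *Peg3* difference no longer passed the adjusted p threshold in 10 of 19 alternatives: without any 1 GS replicate, NO replicate 3 or DM replicate 1 or 2 (adjusted p = 0.0576 to 0.117), with no minimum mean, with only the 6 samples compared, with no trend and with precision weights. Without NO replicate 2 it passed that threshold but was under 2-fold, so *Peg3* was not called there either.

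*Zim1*, a maternally expressed zinc finger gene, was at 21, 20 and 33 normalised counts for GS, 21, 22 and 43 for DM and 50, 128 and 48 for NO. NO was above both other media in all replicates. It passed in NO vs. GS (1.45 ± 0.43, adjusted p = 0.035) and not in NO vs. DM (1.29 ± 0.43, adjusted p = 0.0662). The *Zim1* call did not hold without any 1 GS replicate or NO replicate 2 (adjusted p = 0.0525 to 0.115), with no minimum mean, with no trend or after quantile normalisation.

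*Usp29*, a ubiquitin-specific protease, was at 50, 37 and 30 normalised counts for GS, 33, 36 and 22 for DM and 31, 31 and 16 for NO, and its log2 fold changes of -0.60 to -0.24 did not pass. *Usp29* starts next to *Peg3* on the other strand, and their windows share 263 bases (chr7:6730370-6730632). *Peg3* passed only in NO vs. GS and *Usp29* in no comparison, and the difference between the genes was not tested. The *Peg3* window (chr7:6730370-6730669, minus strand, 13 CpG) is shown because 1 stretch of DNA lies at the start of both genes, with the shared bases in capitals.
Peg3: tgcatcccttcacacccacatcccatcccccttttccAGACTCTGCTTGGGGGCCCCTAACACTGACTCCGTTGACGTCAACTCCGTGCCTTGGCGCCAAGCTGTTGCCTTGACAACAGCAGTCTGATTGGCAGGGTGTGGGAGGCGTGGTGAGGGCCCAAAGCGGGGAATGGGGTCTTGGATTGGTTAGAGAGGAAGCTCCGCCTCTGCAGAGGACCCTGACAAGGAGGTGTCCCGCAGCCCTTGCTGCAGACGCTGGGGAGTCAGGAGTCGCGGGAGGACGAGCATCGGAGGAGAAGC
It held no ZFP57 hexamer on either strand. The ratio of *Peg3* to *Usp29* normalised counts was 12.9 to 21.3 in GS, 27.9 to 37.9 in DM and 27.7 to 101 in NO.

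The Snrpn cluster (chr7:59228750-62420139) is the region whose loss causes Prader-Willi and Angelman syndromes in people. In the same cluster, the paternally expressed *Magel2*, a regulator of ubiquitin ligases, was at 11, 4 and 11 normalised counts for GS, 32, 35 and 54 for DM and 32, 151 and 67 for NO. DM and NO were above GS in every replicate. *Magel2* rose by 2.17 ± 0.54 on the log2 scale in DM vs. GS (adjusted p = 0.0334) and by 2.96 ± 0.54 in NO vs. GS (adjusted p = 0.00349). The DM vs. GS call of *Magel2* was lost in 11 of 18 alternatives: without any 1 GS or DM replicate or NO replicate 3 (adjusted p = 0.0548 to 0.133), with no minimum mean, with the replicate block, with no trend and with precision weights.

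*Ndn*, the growth suppressor necdin, was at 41, 41 and 44 normalised counts for GS, 26, 18 and 20 for DM and 27, 118 and 58 for NO. DM was lowest in all replicates, but neither DM vs. GS (-0.96 ± 0.44, adjusted p = 0.251) nor NO vs. DM (1.40 ± 0.44, adjusted p = 0.0542) passed. *Mkrn3*, a makorin-type ubiquitin ligase, was at 160 to 354 normalised counts, and *Ube3a*, the ubiquitin ligase that is maternally expressed in neurons, at 1209 to 2494. Neither passed in any comparison (adjusted p = 0.229 to 0.872), and 27.3% of the exon bases of *Ube3a* were shared with genes of the opposite strand such as *Snhg14*. Of 8 other tested genes, 0 passed in limma, and 0, 2 and 1 had an unadjusted p under 0.05 in DM vs. GS, NO vs. GS and NO vs. DM. The shares of all genes with such a p were 19.9%, 34.6% and 31.3%.

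*Copg2*, the maternally expressed coatomer subunit that overlaps *Mest* tail to tail, was at 1799, 1513 and 2134 normalised counts for GS, 1719, 1693 and 1640 for DM and 2010, 1219 and 1609 for NO. It did not pass (adjusted p = 0.51 to 0.831), and the media overlapped. The ratio of *Mest* to *Copg2* was 0.5 to 0.761 in GS, 1.03 to 1.19 in DM and 1.01 to 1.79 in NO. The exons of the pair share 912 bases on opposite strands (23.1% of *Mest*, 17.8% of *Copg2*), where a count without strand cannot assign a read.

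**Figure D4:**
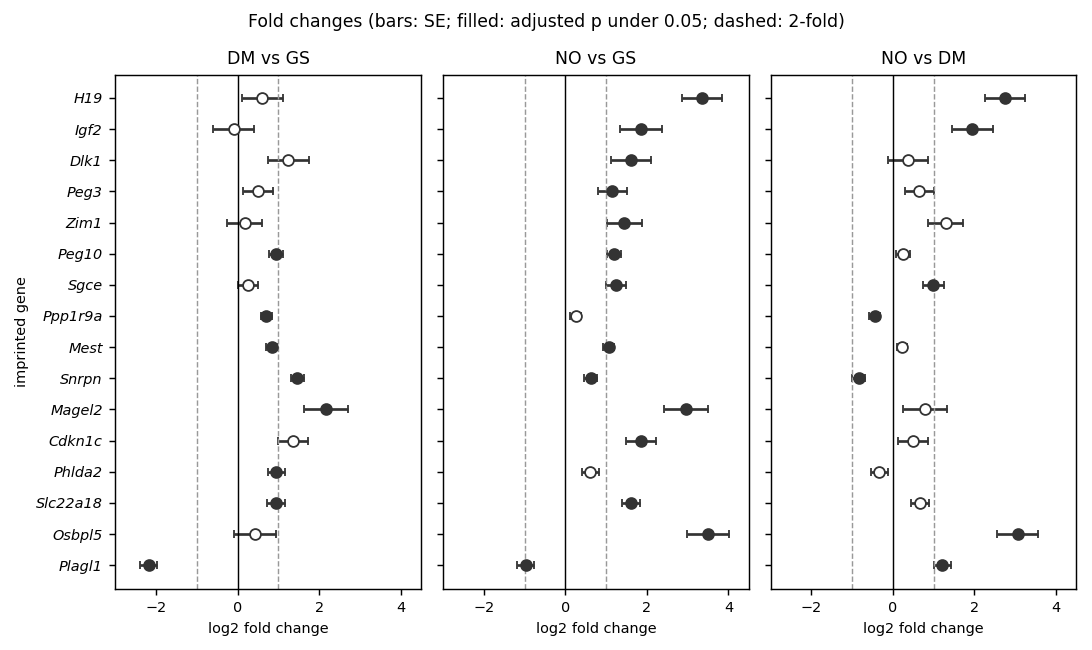
Log2 fold changes (points) with SE (bars) of the 16 imprinted genes past an adjusted p of 0.05 in at least 1 comparison, in DM vs. GS, NO vs. GS and NO vs. DM, filled where that comparison passed, with dashed lines at 2-fold. *H19* and *Osbpl5* had filled points above 2 in both NO comparisons, and *Plagl1* was the only gene with a filled point below the lower dashed line.

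The other imprinted genes did not pass in any comparison. *Igf2r* was at 3682 to 4516 normalised counts for GS, 2809 to 3381 for DM and 3816 to 7030 for NO, with NO above DM in all replicates (0.64 ± 0.20, adjusted p = 0.0575). *Airn*, the noncoding RNA that silences *Igf2r* on the paternal copy, was at 0 to 15 normalised counts (NO vs. GS 1.86 ± 0.73, adjusted p = 0.0928). *Impact* was at 3272 to 5758 normalised counts (NO vs. DM 0.44 ± 0.15, adjusted p = 0.0738), and *Zrsr1*, a splicing factor gene that lies within *Commd1* on the other strand, at 532 to 1163 (NO vs. DM 0.58 ± 0.18, adjusted p = 0.0512). *Commd1*, a copper metabolism gene, was at 412 to 570 normalised counts in DM and 358 to 405 in NO (NO vs. DM -0.37 ± 0.15, adjusted p = 0.132).

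*Grb10*, an adaptor that restrains growth factor receptors, was at 906 to 1146 normalised counts. *Nnat*, the membrane protein neuronatin, was at 104 to 171 normalised counts for GS, 176 to 188 for DM and 155 to 211 for NO (DM vs. GS 0.55 ± 0.22, adjusted p = 0.188). *H13*, a signal peptide peptidase, was at 442 to 603 normalised counts and *Inpp5f*, a phosphoinositide phosphatase, at 444 to 633. *Gnas*, the stimulatory G protein subunit, was at 51 to 82 normalised counts, and 22.0% of its exon bases were shared with opposite-strand genes such as *Nespas*. Adjusted p for *Grb10*, *H13*, *Inpp5f* and *Gnas* lay between 0.27 and 0.988.

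Sorted by the usually expressed copy as known for the mouse, 17 tested genes were paternally and 18 maternally expressed, and 4 were of both kinds by tissue or transcript. *Ube3a*, maternally expressed in neurons, was counted as maternal, and the copy read in these cells was not measured for any gene. In NO vs. GS 7 paternally expressed genes (41.2%) and 5 maternally expressed genes (27.8%) were called, all higher, against 10.1% of all genes, with median log2 fold changes of 0.62 and 0.29. In DM vs. GS the counts were 3 and 0 (4.2% of all genes) with medians of 0.42 and 0.20, and in NO vs. DM 2 and 2 (8.55% of all genes) with medians of 0.44 and -0.10. None of the 4 mixed genes was called. The difference between the classes was not tested.

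A second list of 36 imprinted genes outside the 41 had 29 rows, of which 24 were tested. In NO vs. GS *Th*, *Begain*, *Nap1l5* and *Tspan32* were called higher and *Dhcr7* lower, against 10.1% and 1.64% of all genes. *Begain*, next to *Dlk1*, was at 21 to 25 normalised counts for GS, 19 to 74 for DM and 50 to 254 for NO (2.15 ± 0.57, adjusted p = 0.0216), and *Th*, tyrosine hydroxylase, at 3 to 14, 9 to 14 and 19 to 65 (2.34 ± 0.56, adjusted p = 0.0132). *Nap1l5*, a nucleosome assembly protein gene, gave 1.85 ± 0.54 (adjusted p = 0.0333). *Dhcr7*, an enzyme of cholesterol synthesis, fell in the NO medium to 770 to 1075 normalised counts in NO from 1602 to 2165 in GS and 1775 to 2344 in DM (NO vs. GS -1.05 ± 0.17, adjusted p = 0.00226, and NO vs. DM -1.22 ± 0.17, adjusted p = 0.00286). The NO vs. GS value of *Dhcr7* was short of 2-fold without GS replicate 1, NO replicate 2 or NO replicate 3 (-0.99 to -0.92). In this list the NO vs. GS calls were lost for *Begain* without any 1 GS replicate or NO replicate 2 or 3 (adjusted p = 0.0524 to 0.0707, value 1.53 without NO replicate 2), for *Nap1l5* without any 1 GS replicate or NO replicate 2 (adjusted p = 0.0817 to 0.109, value 1.22 without NO replicate 2) and for *Th* without GS replicate 1 or NO replicate 3 (adjusted p = 0.0514 and 0.0518).

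*Dio3*, the thyroid hormone deiodinase at the far end of the Dlk1-Meg3 domain, was called lower in DM vs. GS. It was measured at 155, 151 and 160 normalised counts for GS, 34, 57 and 72 for DM and 96, 211 and 207 for NO, with every DM value below all others. DM vs. GS gave -1.56 ± 0.34 (adjusted p = 0.0168) and NO vs. DM 1.62 ± 0.34 (adjusted p = 0.0114). The DM vs. GS call of *Dio3* was lost without any 1 GS replicate or DM replicate 1 (adjusted p = 0.0579 to 0.0735). *Calcr*, the calcitonin receptor, passed in NO vs. DM at 3 to 28 normalised counts (1.76 ± 0.54, adjusted p = 0.0497) but not with the replicate block (adjusted p = 0.0747) or in 7 of 9 fits with 1 library left out, those without NO replicate 1 and DM replicate 3 excepted (adjusted p = 0.053 to 0.157).

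Among 21 genes that set or keep imprints, all of them tested, the de novo DNA methyltransferase gene *Dnmt3a* and its partner *Dnmt3l* were called higher in DM vs. GS, while *Dnmt1*, the maintenance methyltransferase, did not pass (adjusted p = 0.631 to 0.985). *Dnmt3a* was at 1146, 1103 and 1009 normalised counts for GS, 4391, 3872 and 4148 for DM and 1859, 1225 and 1328 for NO, and was called higher in DM vs. GS (1.93 ± 0.16, adjusted p = 8.54e-05) and lower in NO vs. DM (-1.51 ± 0.16, adjusted p = 0.00104). *Dnmt3l*, its catalytically inactive partner, rose by 1.72 ± 0.15 in DM vs. GS (adjusted p = 9.69e-05). *Dppa3*, which protects the maternal genome from demethylation in the zygote, was at 236, 160 and 250 normalised counts for GS, 81, 42 and 48 for DM and 48, 10 and 25 for NO. It was called lower in DM vs. GS (-1.93 ± 0.47, adjusted p = 0.0303) and NO vs. GS (-3.14 ± 0.47, adjusted p = 0.00136), the former lost without any 1 GS replicate or DM replicate 2 or 3 (adjusted p = 0.063 to 0.131). *Tet3*, a dioxygenase that oxidises 5-methylcytosine, was called higher in NO vs. GS (1.15 ± 0.27, adjusted p = 0.0123), though not without GS replicate 3 (adjusted p = 0.0586), and was at 0.80 without NO replicate 2. At less than 2-fold, *Setdb1*, a histone H3 lysine methyltransferase (-0.65 ± 0.14, adjusted p = 0.00877), *Ctcf* (-0.53 ± 0.15, adjusted p = 0.0267) and *Uhrf1*, the cofactor of DNMT1 (-0.56 ± 0.18, adjusted p = 0.0472), passed lower in NO vs. GS, and *Dnmt3l* passed higher (0.96 ± 0.15, adjusted p = 0.00144). *Ctcf* no longer passed without GS replicate 2 or 3 or NO replicate 2 or 3 (adjusted p = 0.0646 to 0.102), nor *Uhrf1* in 7 of 9 fits with 1 library left out, those without NO replicate 1 and DM replicate 3 excepted (adjusted p = 0.0638 to 0.148). *Dnmt3b*, the other de novo enzyme, passed higher in DM vs. GS (0.86 ± 0.14, adjusted p = 0.00304) and lower in NO vs. DM (-0.94 ± 0.14, adjusted p = 0.00288). The H3K9 methyltransferase genes *Ehmt2* (-0.77 ± 0.17, adjusted p = 0.0135) and *Ehmt1* (-0.44 ± 0.12, adjusted p = 0.0346) and *Dnmt3l* (-0.75 ± 0.15, adjusted p = 0.00867) also passed lower in NO vs. DM. *Ehmt1* did not pass with the replicate block (adjusted p = 0.0563) or in 7 of 9 fits with 1 library left out, all but those without GS replicate 3 and NO replicate 1 (adjusted p = 0.0572 to 0.106). *Zfp57* and *Trim28* did not pass in any comparison (adjusted p = 0.217 to 0.884). The counts of this list were 3 called in DM vs. GS (14.3%, against 4.2% of all genes), 2 in NO vs. GS (9.52%, against 11.7%) and 1 in NO vs. DM (4.76%, against 8.55%).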

How the data were processed

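Total RNA of 9 samples (3 media, 3 replicates) was depleted of ribosomal RNA and sequenced on an Ion Torrent Proton. The authors trimmed reads with Reaper, checked them with FastQC 0.11.2, aligned them to GRCm38 with STAR 2.4.0a and counted them per gene with featureCounts 1.4.5-p1, leaving out ambiguous reads. The deposited values carry the unit score: the authors divided read counts by a DESeq2 size factor and rounded them to whole numbers, called normalised counts here. The step of 1 read, 0.701 to 1.323 normalised counts, gave an estimate of each sample's depth (in units of 1e6 assigned reads, 14.3 to 27.1), which limits precision for genes of a few reads.

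Since these values are no raw counts, limma 3.58.1 (R 4.3.3) was fitted to log2(value + 1) of all 9 samples, with trended moderation, for 18156 of 29069 genes with a mean above 5. P-values were adjusted by Benjamini-Hochberg over all genes tested. A call needed an adjusted p under 0.05 and a 2-fold change. The log2(value + 1) scale understates changes of low genes. On simulated data for NO vs. GS (18156 genes, 200 changed), 95% of changed genes were recovered, with 0 of the wrong sign, and 3.55% of calls were unchanged genes. Changed genes had a log2 fold change of 2 either way, and replicates had the same relative spread in all genes and media. The share recovered therefore does not hold for smaller changes or for genes with the wider spread of NO. Samples with the same replicate number deviated together in DM and NO (r = 0.16, 0.17 and 0.30) but not in GS and DM (-0.18, 0.02 and -0.23) or GS and NO (-0.05, 0.05 and -0.11), so the numbers were taken to pair NO with DM only, from the data and not from the labels. Samples with different numbers were not compared in this way, so the pairing is an assumption. The main fit did not use it, and the replicate block did.

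Positions are from GENCODE M21 (GRCm38), in which 28539 of 29069 identifiers matched, and promoters from RefSeq (GRCm38.p6). Listed genes past the adjusted p threshold in at least 1 comparison, and their cluster neighbours on the list, were given in full and the others by level and range. From the other lists, up to 6 genes past both thresholds were named. Igf2os, R74862, Tnfrsf26, Cd81, Zfp57, Trim28, Setdb1, Ctcf, Uhrf1, Ehmt1, Ehmt2, Dnmt1 and Dnmt3b were named after their values were seen. The members and lists were chosen with earlier results of these data known. Alternatives were pseudocounts of 0.5 and 5, other minimum means and fold changes, only the 6 samples compared, a replicate block, no trend, precision weights, equal totals, quantile normalisation and each library left out.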

Additional observations from a re-analysis of the deposited data

How the results depend on the processing

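Of 29 results of imprinted genes past the adjusted p threshold, 18 held in all alternatives run, 11 were lost in at least 1 and 0 reversed. With no minimum fold change, 1215, 3640 and 2587 genes were called in DM vs. GS, NO vs. GS and NO vs. DM, among them 8, 14 and 7 imprinted genes. With a minimum log2 fold change of 2 the counts were 242, 926 and 660 genes, among them 2, 3 and 2 imprinted genes. With a minimum mean of 50, 505, 1206 and 936 genes were called, and the imprinted genes' median fell to 0.25 (NO vs. GS) or 0.01 (NO vs. DM). With only the 6 samples compared, 5 imprinted genes were called in DM vs. GS and 912 genes in NO vs. DM. After quantile normalisation the imprinted genes' median in NO vs. DM was 0.06, and 69.1% of NO vs. GS calls and 66.5% of NO vs. DM calls were higher, against 86.0% and 79.3% in the main results. That scaling moved the median of all genes in NO vs. GS from -0.02 to -0.11, and equal totals moved it to 0.09. With the replicate number as a block, 674, 2085 and 1553 genes and 2, 12 and 4 imprinted genes were called, and Slc22a18 (adjusted p = 0.0513) and Magel2 (adjusted p = 0.0511) no longer passed in DM vs. GS, where the numbers were not taken to pair the samples. Leaving out 1 library gave 2 to 5, 8 to 12 and 2 to 8 imprinted genes and 509 to 962, 1455 to 2831 and 806 to 2512 genes, NO vs. DM being lowest without NO replicate 2 and highest without NO replicate 1. The cause of these shifts was not tested. Depth limits genes of a few reads, such as Dlk1 and Airn.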
